A study of Mus musculus with 31 samples.

Results

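The 10 genes described here encode transcription factors that steer blood progenitors toward granulocytes, monocytes and dendritic cells: Spi1 (the protein is PU.1), Cebpa, Cebpb, Cebpd, Cebpe, Gfi1, Irf8, Irf4, Klf4 and Runx1. They were taken from the 45706 gene identifiers of the count tables by their symbols, and all 10 were found and passed the filter on low counts in every comparison. The RNA-seq libraries came from marrow cells of wild-type C57BL/6 mice, 10 weeks old, that had received an intraperitoneal dose of β-glucan (1 mg), a polysaccharide of fungal cell walls, or PBS. Long-term hematopoietic stem cells (HSC) were collected at day 7 (3 β-glucan and 4 PBS libraries) and day 28 (4 and 4), and multipotent progenitors (MPP) at day 28 (4 and 4). In a further set, mice of both injections received 150 mg/kg of 5-fluorouracil (5-FU), which kills dividing cells, on day 7, and their HSC were collected 14 days after it (4 and 4). Since the labels do not state that replicates were separate animals, a p-value here covers only the variation among these samples, which may be technical.

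Myeloid fate is set by a small set of DNA-binding proteins that act in order and on each other. PU.1 and C/EBPα open the myeloid programme in early progenitors, C/EBPε and the repressor Gfi1 act in granulocyte precursors, where C/EBPε drives the genes of the secondary granules, and Irf8 and Klf4 favour monocytes, with Irf8 also needed for dendritic cells. C/EBPβ supports granulocyte production under stress, C/EBPδ is induced by inflammatory signals, Irf4 acts in B cells, plasma cells and dendritic cells, and Runx1 is the DNA-binding part of core binding factor, which is needed for stem cells to arise in the embryo.

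In the mm10 coordinates of the tables, the C/EBP genes were Cebpa (ENSMUSG00000034957) at chr7:35119293-35121926 on the plus strand, Cebpb (ENSMUSG00000056501) at chr2:167688915-167690418 on the plus strand, Cebpd (ENSMUSG00000071637) at chr16:15887286-15888466 on the plus strand and Cebpe (ENSMUSG00000052435) at chr14:54710363-54712174 on the minus strand. The interferon regulatory factor genes were Irf4 (ENSMUSG00000021356) at chr13:30749226-30766927 on the plus strand and Irf8 (ENSMUSG00000041515) at chr8:120736358-120756694 on the plus strand. The others were Spi1 (ENSMUSG00000002111) at chr2:91082390-91115756 on the plus strand, Gfi1 (ENSMUSG00000029275) at chr5:107716657-107726036 on the minus strand, Klf4 (ENSMUSG00000003032) at chr4:55527143-55532466 on the minus strand and Runx1 (ENSMUSG00000022952) at chr16:92601466-92826149 on the minus strand. The protocol does not mark strand, so overlapping genes are uncertain. Cebpb overlaps Tmem189 on the other strand, which had at most 246 counts in a library, Gfi1 overlaps A430072P03Rik (at most 13 counts) and Runx1 overlaps Gm26626 (at most 6 counts). The other 7 factors overlap no annotated gene.

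The 31 libraries held 19331663 to 39485556 counts (median 29751430), so even the lowest count of a factor in a library, Cebpd with 45, stood well above 0. Levels are given as CPM, counts scaled by each library's TMM-adjusted total. Levels from different tables are set side by side without a test. Transcripts of mature cells were present in every library. The 14 neutrophil markers held 5.29 to 19.8% of counts and the 13 erythroid markers 2.23 to 19.6%, against 0.04 to 0.245% for the 15 LT-HSC markers. The stem cell marker Procr averaged 56.6 CPM in HSC of β-glucan mice and 53.1 CPM in HSC of PBS mice at day 7, but 5.81 and 7.79 CPM in HSC of β-glucan and PBS mice at day 28, near the 4.91 and 5.10 CPM in MPP. In PBS mice all 7 MPP markers tested were higher and 8 of 14 LT-HSC markers lower in MPP than in HSC (edgeR, adjusted p under 0.05). In such bulk samples, fewer cells of a type and less RNA per cell cannot be told apart.

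Per kilobase of the gene length given in the tables, Cebpe had the highest level of the 10 factors in all 8 groups. At day 28 it stood at 97.1 ± 13.5 CPM per kb in HSC of β-glucan mice and 68.9 ± 7.70 CPM per kb in HSC of PBS mice (mean ± SD, n = 4 each). Irf8 came next, at 19.4 ± 2.12 CPM per kb in HSC of β-glucan mice and 16.6 ± 0.722 CPM per kb in HSC of PBS mice. The gap between Cebpe and Irf8 exceeded their spread in each of these groups. Cebpb and Spi1 followed, at 6.46 ± 1.24 and 6.21 ± 0.230 CPM per kb in HSC of β-glucan mice, and these neighbours differed by less than the SD of Cebpb, though by slightly more than that of Spi1. Cebpd (3.89 ± 0.672 CPM per kb) and Klf4 (3.63 ± 0.622 CPM per kb) were likewise within their spread in HSC of β-glucan mice. Cebpa, at 2.82 ± 0.479 CPM per kb, stood above Gfi1 (2.05 ± 0.355), Irf4 (1.98 ± 0.177) and Runx1 (1.91 ± 0.293 CPM per kb), and these last 3 lay within their spread. In HSC of PBS mice at day 28 Gfi1 was the lowest of the 10, at 0.976 ± 0.256 CPM per kb.

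Irf8 and Irf4 changed place in this order per kb across groups. Irf8 ranked 2nd in the 6 groups without 5-FU and 6th in the HSC sampled after 5-FU. Its level there was 23.8 ± 3.69 CPM in β-glucan mice and 20.7 ± 2.86 CPM in PBS mice, against 137 ± 14.9 and 117 ± 5.09 CPM in HSC of β-glucan and PBS mice at day 28. These values come from separate tables and were not tested against each other. The 14 dendritic cell markers were also lower after 5-FU, at 0.0204 to 0.0274% of counts against 0.0346 to 0.0403% in HSC at day 28. In the day 7 HSC libraries these markers held 0.0589 to 0.0661% in β-glucan mice and 0.0769 to 0.0926% in PBS mice. Mean Irf8 was lower in those libraries than at day 28, at 95.7 ± 14.2 CPM (β-glucan) and 92.7 ± 20.0 CPM (PBS). Neutrophil markers held 14.7 to 19.8% after 5-FU and 6.22 to 7.87% in HSC at day 28, and B cell markers 0.138 to 0.249% after 5-FU and 0.323 to 0.403% in HSC at day 28. Monocyte markers held 0.257 to 0.320% after 5-FU and 0.176 to 0.227% in HSC at day 28. Irf4 had its lowest group means in the same set, 4.83 ± 1.19 CPM in β-glucan mice and 5.62 ± 0.645 CPM in PBS mice. The part of these cells in the Irf8 and Irf4 levels was not tested. Irf4 ranked 5th in MPP of PBS mice and 10th in HSC of β-glucan mice at day 7 and in both 5-FU groups. Runx1 had group means between 20.5 and 28.8 CPM in all 8 groups, the narrowest range relative to its level.

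**Figure D1:**
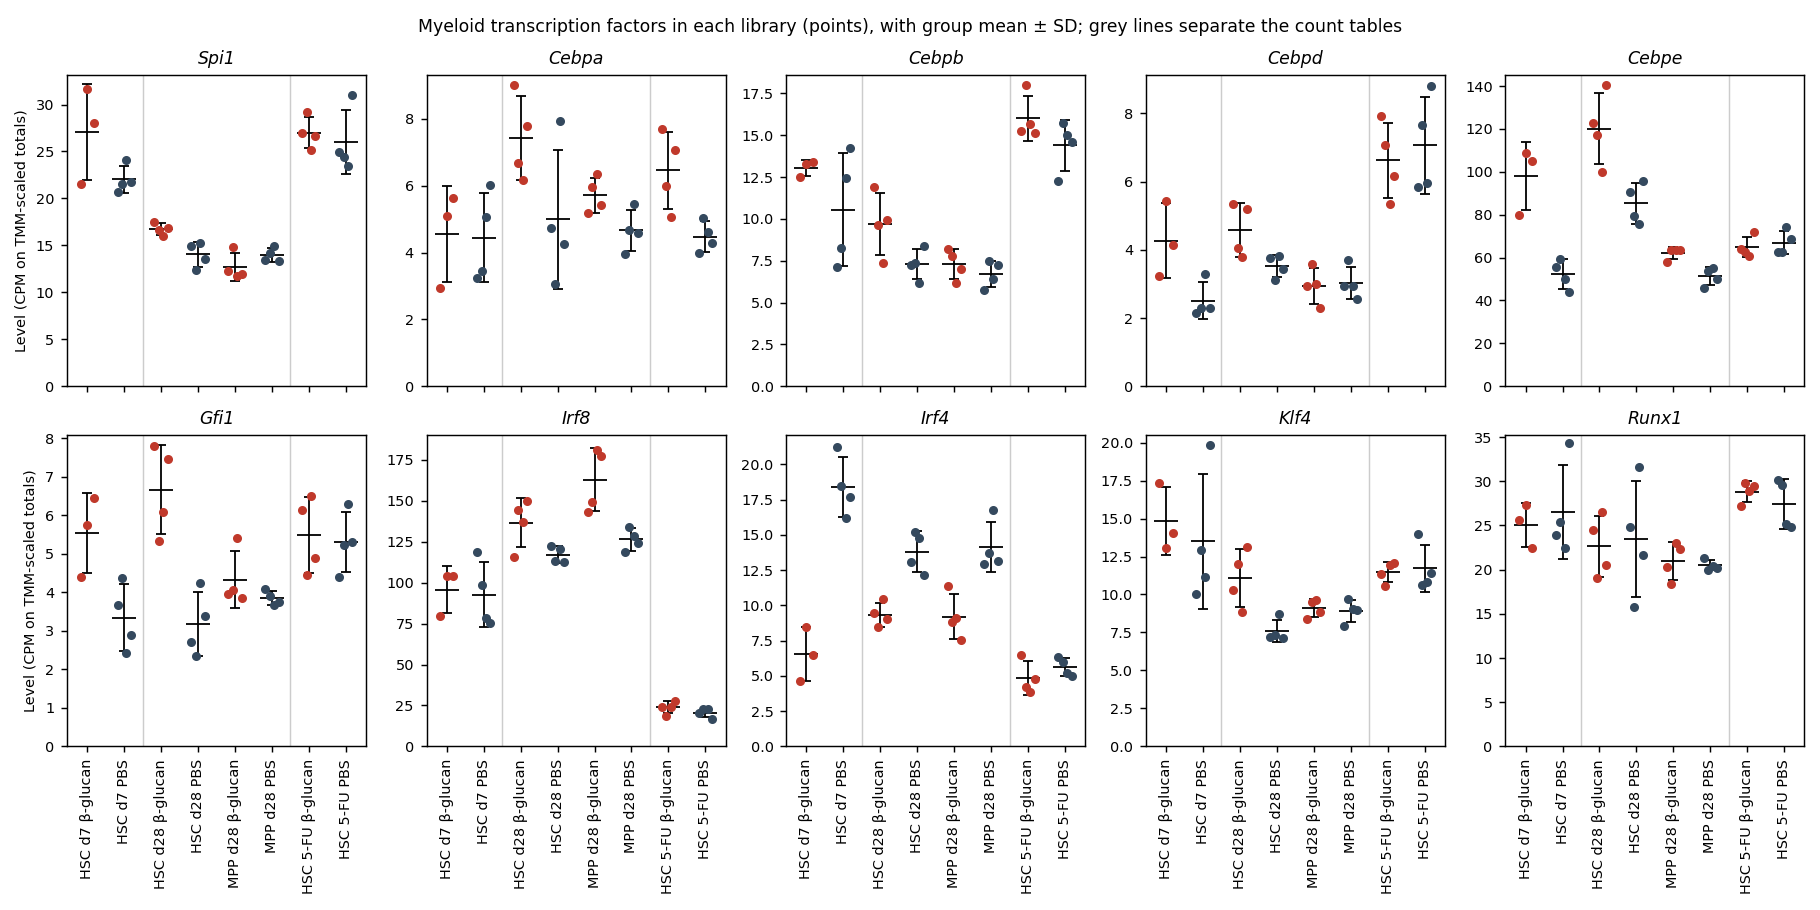
Level of each of the 10 factors in every library, in CPM on TMM-scaled totals, with the group mean and SD (black); red points are β-glucan and blue points PBS libraries, and grey lines separate the 3 count tables. Cebpe is higher and Irf4 lower in HSC of β-glucan mice at day 7 with no overlap, and Irf8 lies between 16.6 and 27.8 CPM in all 8 libraries after 5-FU.

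Promoter sequence was at hand for 7 of the 10 factors, from the RefSeq table for GRCm38.p6, covering 250 bases before and 50 after each start site. The table holds 2 start sites each for Irf8, Gfi1 and Runx1. Of these, 3 are shown, for the factor that was lower after β-glucan (Irf4), a factor that was higher in MPP after β-glucan (Irf8) and the factor with the greatest fold difference in HSC at day 28 (Gfi1). Capitals mark matches, on either strand, to 6 motifs searched by their letters. The Irf4 promoter (chr13:30748983-30749282, plus strand) holds 1 match to the PU.1 core GAGGAA, on the opposite strand, at position -19 from the start. The Irf8 promoter shown (chr8:120736108-120736407, plus strand) holds 2 matches to the STAT site TTCNNNGAA, at positions -171 and -153, and the Gfi1 promoter shown (chr5:107725756-107726055, minus strand) holds 1 match to the C/EBP site TTGCNNAA at position -143. The second promoters in the table, of Irf8 (chr8:120738389-120738688, plus strand) and of Gfi1 (chr5:107724294-107724593, minus strand), hold no match to any of the 6 motifs.
Irf4: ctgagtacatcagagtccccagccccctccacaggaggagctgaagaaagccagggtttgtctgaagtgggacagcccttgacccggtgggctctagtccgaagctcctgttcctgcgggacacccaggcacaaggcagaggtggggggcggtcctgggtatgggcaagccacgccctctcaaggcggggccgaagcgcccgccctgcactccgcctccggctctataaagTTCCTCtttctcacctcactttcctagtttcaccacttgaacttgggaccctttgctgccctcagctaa
Irf8: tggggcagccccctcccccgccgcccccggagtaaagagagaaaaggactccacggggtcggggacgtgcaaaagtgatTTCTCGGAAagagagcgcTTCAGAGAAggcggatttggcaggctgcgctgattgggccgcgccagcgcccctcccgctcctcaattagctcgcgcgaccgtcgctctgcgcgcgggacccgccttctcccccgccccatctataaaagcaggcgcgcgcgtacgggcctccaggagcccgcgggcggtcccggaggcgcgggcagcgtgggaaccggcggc
Gfi1: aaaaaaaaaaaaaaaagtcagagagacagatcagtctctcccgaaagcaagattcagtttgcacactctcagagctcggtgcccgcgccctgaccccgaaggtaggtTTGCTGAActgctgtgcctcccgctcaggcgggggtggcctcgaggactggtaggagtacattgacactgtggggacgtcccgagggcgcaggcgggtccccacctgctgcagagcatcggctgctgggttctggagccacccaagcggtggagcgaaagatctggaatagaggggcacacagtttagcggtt
Such matches are common and are given as a description of these letters. Of 32851 promoters of the same length, 28.3% hold GAGGAA, 8.3% hold TTCNNNGAA and 10.8% hold TTGCNNAA. None of the 3 promoters shown holds a match to the ETS-IRF composite (2.72% of promoters), the RUNX site TGTGGT (16.8%) or the kappaB site (1.63%).

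The first comparison asked how β-glucan had moved the factors in HSC by day 7. Cebpe rose and Irf4 fell, and the other 8 factors did not pass the threshold. The rule used throughout was an adjusted p under 0.05, from the quasi-likelihood test of edgeR and adjusted by Benjamini-Hochberg over all genes tested. It called 2 of the 10 factors, beside 6.72% of all genes (2.83% higher and 3.88% lower). The groups did not overlap for 3 factors (Cebpe, Gfi1 and Irf4), as for 18.9% of all genes.

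Cebpe, the late granulocyte factor, had 79.7, 109 and 105 CPM in HSC of β-glucan mice at day 7, against 55.6, 59.6, 50.1 and 43.8 CPM in HSC of PBS mice. Every β-glucan library lay above every PBS library. The log2 fold change was 0.90 ± 0.13 (SE), a 1.87-fold higher level, with adjusted p = 0.00194 by edgeR. Gfi1, which acts beside it in granulocyte precursors, had 4.40, 5.76 and 6.44 CPM in β-glucan mice and 3.68, 4.38, 2.42 and 2.90 CPM in PBS mice. The lowest β-glucan library was almost level with the highest PBS library, and the difference of 0.72 ± 0.24 missed the threshold (adjusted p = 0.104, edgeR). Cebpd, the inflammation-induced member of the family, stood at 3.23, 5.43 and 4.13 CPM in β-glucan mice, against 2.15, 2.29, 3.30 and 2.29 CPM in PBS mice. Its groups overlapped in 1 library of each, and the difference of 0.77 ± 0.25 missed the threshold (adjusted p = 0.0954, edgeR). When all 8 groups entered 1 fit, Cebpd and Gfi1 were called too (adjusted p = 0.0106 and 0.0185, edgeR). DESeq2 called Gfi1 (adjusted p = 0.0498) and limma voom called Cebpd (adjusted p = 0.0378).

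Irf4 went the other way. It had 4.66, 8.50 and 6.49 CPM in HSC of β-glucan mice and 21.2, 18.5, 16.2 and 17.7 CPM in HSC of PBS mice at day 7. The highest β-glucan library, at 8.50 CPM, lay far below the lowest PBS library, at 16.2 CPM. The log2 fold change was -1.49 ± 0.20, with adjusted p = 0.00154 by edgeR. In the same libraries 11 of 13 B cell markers were lower in β-glucan mice (median log2 fold change -1.30), with 0.262 to 0.289% of counts in β-glucan mice and 0.398 to 0.413% in PBS mice. Of the 14 dendritic cell markers, 6 were lower (0.0589 to 0.0661% of counts in β-glucan mice and 0.0769 to 0.0926% in PBS mice). The 13 erythroid markers shifted as far as the B cell markers. Of these, 11 were lower in β-glucan mice (median log2 fold change -1.30), with 2.23 to 3.13% of counts in β-glucan mice and 6.70 to 8.15% in PBS mice. No B cell, dendritic cell or erythroid marker was at 0 in any of these libraries, and the part of these cells in the values of Irf4, Cebpe and the other factors was not tested.

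The other 6 factors overlapped between the groups at day 7. Spi1 stood at 27.1 ± 5.09 CPM in HSC of β-glucan mice and 22.0 ± 1.45 CPM in HSC of PBS mice, and Cebpb at 13.1 ± 0.489 and 10.5 ± 3.38 CPM in β-glucan and PBS mice (SD, n = 3 and 4). The differences were 0.30 ± 0.13 for Spi1 (adjusted p = 0.247) and 0.31 ± 0.22 for Cebpb (adjusted p = 0.497, edgeR). Irf8 averaged 95.7 ± 14.2 CPM in β-glucan mice and 92.7 ± 20.0 CPM in PBS mice, a difference of 0.04 ± 0.15 with a 95% interval from -0.29 to 0.38. Cebpa, Cebpb, Klf4 and Runx1 also had intervals on both sides of 0. Of 44 partner and related regulators, 4 rose and 3 fell. The 4 were the interferon regulator Irf1 (0.60 ± 0.09), the E protein inhibitors Id2 (0.63 ± 0.12) and Id1 (0.95 ± 0.19), and Bhlhe40 (0.63 ± 0.12). In the same libraries 5 of 15 monocyte markers were higher in β-glucan mice, and their part in the values was not tested. The 3 regulators that fell, named after their values were seen, were Runx2 (-0.45 ± 0.11), Trib2 (-0.70 ± 0.14) and the dendritic cell factor Tcf4 (-0.38 ± 0.09).

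At day 28 the same question was asked in HSC collected 28 days after the injection. By edgeR none of the 10 factors was called, where 0.0374% of all genes were, but 9 of the 10 had an unadjusted p under 0.05, as did 17% of all genes. DESeq2 called 4 factors (Cebpe, Gfi1, Irf4 and Klf4), limma voom the same 4, and edgeR without the filter or with all 8 groups in 1 fit called Cebpe, Gfi1 and Irf4. The groups did not overlap for 5 factors, beside 8.83% of all genes. Spi1, Cebpe, Gfi1 and Klf4 were higher in β-glucan mice (4.31% of all genes) and Irf4 was lower (4.52%). The median log2 fold change of the 10 factors was 0.38, beside -0.02 for all genes tested. The factors were chosen with earlier results of these data known, so the counts and medians set beside all genes are descriptions.

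Gfi1 showed the greatest fold difference of the 10. It had 7.79, 5.33, 6.09 and 7.45 CPM in HSC of β-glucan mice at day 28, against 2.70, 2.35, 4.23 and 3.39 CPM in HSC of PBS mice. All 4 β-glucan libraries lay above all 4 PBS libraries. The difference was 1.06 ± 0.20 on the log2 scale, with adjusted p = 0.092 by edgeR and 8.39e-05 by DESeq2. Cebpe had 123, 117, 99.9 and 141 CPM in β-glucan mice and 90.5, 79.3, 75.4 and 95.9 CPM in PBS mice (0.48 ± 0.11, adjusted p = 0.121 by edgeR and 0.00895 by DESeq2). Irf4 had 9.43, 8.45, 10.4 and 9.01 CPM in β-glucan mice and 13.1, 15.2, 14.8 and 12.1 CPM in PBS mice (-0.58 ± 0.12, adjusted p = 0.0975 by edgeR and 0.000792 by DESeq2). Neither of these had a β-glucan library within the PBS range. Klf4, a monocyte factor, had 10.3, 12.0, 8.83 and 13.2 CPM in β-glucan mice and 7.23, 7.35, 8.72 and 7.17 CPM in PBS mice. Its groups were barely apart, with 8.83 CPM in the lowest β-glucan library and 8.72 CPM in the highest PBS library (0.53 ± 0.14, adjusted p = 0.141 by edgeR and 0.0207 by DESeq2).

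Spi1 stood at 16.7 ± 0.619 CPM in HSC of β-glucan mice and 14.0 ± 1.32 CPM in HSC of PBS mice at day 28, a difference of 0.24 ± 0.10. Cebpa averaged 7.42 ± 1.26 CPM in β-glucan mice and 4.99 ± 2.08 CPM in PBS mice, where its libraries ran between 3.07 and 7.93 CPM. Cebpb averaged 9.71 ± 1.86 and 7.29 ± 0.904 CPM in β-glucan and PBS mice, and Cebpd 4.59 ± 0.793 and 3.53 ± 0.321 CPM. These 4 had adjusted p between 0.225 and 0.287 by edgeR, as had Irf8, at 137 ± 14.9 CPM in β-glucan mice and 117 ± 5.09 CPM in PBS mice (0.21 ± 0.09). Runx1 differed by -0.06 ± 0.19 (95% interval -0.47 to 0.35). None of the 44 related regulators was called by edgeR. Neutrophil markers held 6.22 to 7.11% of counts in β-glucan mice and 7.14 to 7.87% in PBS mice, with no overlap. B cell markers held 0.323 to 0.395% and 0.347 to 0.403% in β-glucan and PBS mice. Erythroid markers held 16.4 to 18.2% in β-glucan mice and 18.6 to 19.6% in PBS mice, also with no overlap. No marker was called by edgeR, and the median log2 fold change was 0.60 for 9 stromal and endothelial markers, 0.30 for 9 markers of basophils, mast cells and eosinophils, -0.35 for 15 LT-HSC markers and -0.20 for the erythroid markers. The part of these cells in the values of the factors was not tested.

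In MPP at day 28, Cebpe and Irf8 rose and Irf4 fell, 3 of 10 factors beside 4.63% of all genes (2.72% higher and 1.91% lower). The groups of the same 3 factors did not overlap, beside 12.4% of all genes.

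Irf8, the monocyte and dendritic cell factor, had 143, 149, 181 and 178 CPM in MPP of β-glucan mice and 118, 134, 129 and 124 CPM in MPP of PBS mice. The lowest β-glucan library lay above the highest PBS library, and β-glucan libraries 3 and 4 stood higher than 1 and 2. The log2 fold change was 0.36 ± 0.08 (1.28-fold, adjusted p = 0.0251, edgeR). Cebpe had 58.1, 63.5, 63.3 and 63.7 CPM in β-glucan mice and 46.0, 53.9, 55.2 and 50.1 CPM in PBS mice (0.27 ± 0.06, 1.21-fold, adjusted p = 0.0313, edgeR). Irf4 had 11.3, 8.83, 9.08 and 7.54 CPM in β-glucan mice and 12.9, 13.8, 16.7 and 13.1 CPM in PBS mice (-0.62 ± 0.12, adjusted p = 0.0171, edgeR). All β-glucan libraries lay above the PBS libraries for Cebpe and below them for Irf4. As at day 7, B cell markers were lower beside Irf4, 10 of 13 with a median log2 fold change of -0.51, although their summed share overlapped (0.615 to 0.721% of counts in β-glucan mice and 0.640 to 0.729% in PBS mice). Of 14 dendritic cell markers 1 was higher and 2 were lower, with 0.0569 to 0.0616% of counts in β-glucan mice and 0.0609 to 0.0617% in PBS mice. Of 15 monocyte markers none was higher and 2 were lower (median log2 fold change -0.18). They held 0.207 to 0.237% in β-glucan mice and 0.232 to 0.253% in PBS mice. Markers of basophils, mast cells and eosinophils held 0.344 to 0.382% in β-glucan mice and 0.267 to 0.328% in PBS mice, and stromal and endothelial markers 0.0135 to 0.0160% and 0.0110 to 0.0131% in β-glucan and PBS mice, with 2 of 9 higher in each list. The part of these cells in the Irf4, Irf8 and Cebpe values was not tested.

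The calls in MPP were close to the threshold. Without PBS library 2 or 3, or without β-glucan library 3, none of the 3 factors was called, and without PBS library 1 or 4, or β-glucan library 4, Irf4 alone was. Over the 8 fits that each left out 1 library, the log2 fold change ran from 0.22 to 0.31 for Cebpe, from 0.30 to 0.42 for Irf8 and from -0.74 to -0.53 for Irf4, with adjusted p of at most 0.089, 0.0788 and 0.057 (edgeR). Spi1 (12.7 ± 1.46 CPM in β-glucan mice and 13.9 ± 0.740 CPM in PBS mice), Cebpa (5.72 ± 0.526 and 4.67 ± 0.611 CPM in β-glucan and PBS mice) and Gfi1 (4.33 ± 0.732 and 3.85 ± 0.177 CPM) did not pass. Klf4 and Runx1 differed by 0.03 ± 0.09 and 0.03 ± 0.08, with 95% intervals from -0.17 to 0.22 and from -0.15 to 0.20. Of the 44 related regulators, the AP-1 subunit Junb rose (1.21 ± 0.27, at 2.93 CPM in β-glucan mice and 1.26 CPM in PBS mice), and the interferon regulators Irf2 (-0.26 ± 0.04) and Irf7 (-0.22 ± 0.05) fell.

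In the HSC sampled after 5-FU, no factor was called, and 0.0446% of all genes were. By edgeR 1 factor, Cebpa, had an unadjusted p under 0.05, beside 7.54% of all genes, and DESeq2 and limma voom called none. Cebpa, the factor that starts the granulocyte and monocyte line, had 7.69, 6.01, 5.07 and 7.07 CPM in β-glucan mice and 3.98, 5.04, 4.62 and 4.27 CPM in PBS mice. Its groups touched without overlapping, at 5.07 and 5.04 CPM, and it was the only factor of the 10 whose groups did not overlap, as for 4.61% of all genes. The difference was 0.53 ± 0.16 (adjusted p = 0.371, edgeR). In 3 marker lists the libraries of β-glucan and PBS mice did not overlap either. Markers of basophils, mast cells and eosinophils held 0.339 to 0.469% of counts in β-glucan mice and 0.183 to 0.267% in PBS mice, with the eosinophil peroxidase gene Epx called higher (0.95 ± 0.13, adjusted p = 0.027, edgeR). Stromal and endothelial markers held 0.0298 to 0.0345% in β-glucan mice and 0.0114 to 0.0224% in PBS mice, and erythroid markers 9.46 to 12.57% in β-glucan mice and 12.62 to 16.5% in PBS mice, with none called. The part of these cells in the Cebpa value was not tested. Cebpe stood at 64.9 ± 4.89 CPM in β-glucan mice and 67.0 ± 5.47 CPM in PBS mice, a difference of -0.05 ± 0.08 with a 95% interval from -0.21 to 0.12. Gfi1 (0.05 ± 0.17), Klf4 (-0.03 ± 0.11), Spi1 (0.06 ± 0.10) and Runx1 (0.07 ± 0.09) also lay near 0, and Irf4 differed by -0.21 ± 0.18. No regulator among the 43 tested, and no primary or secondary granule gene, was called by edgeR.

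**Figure D2:**
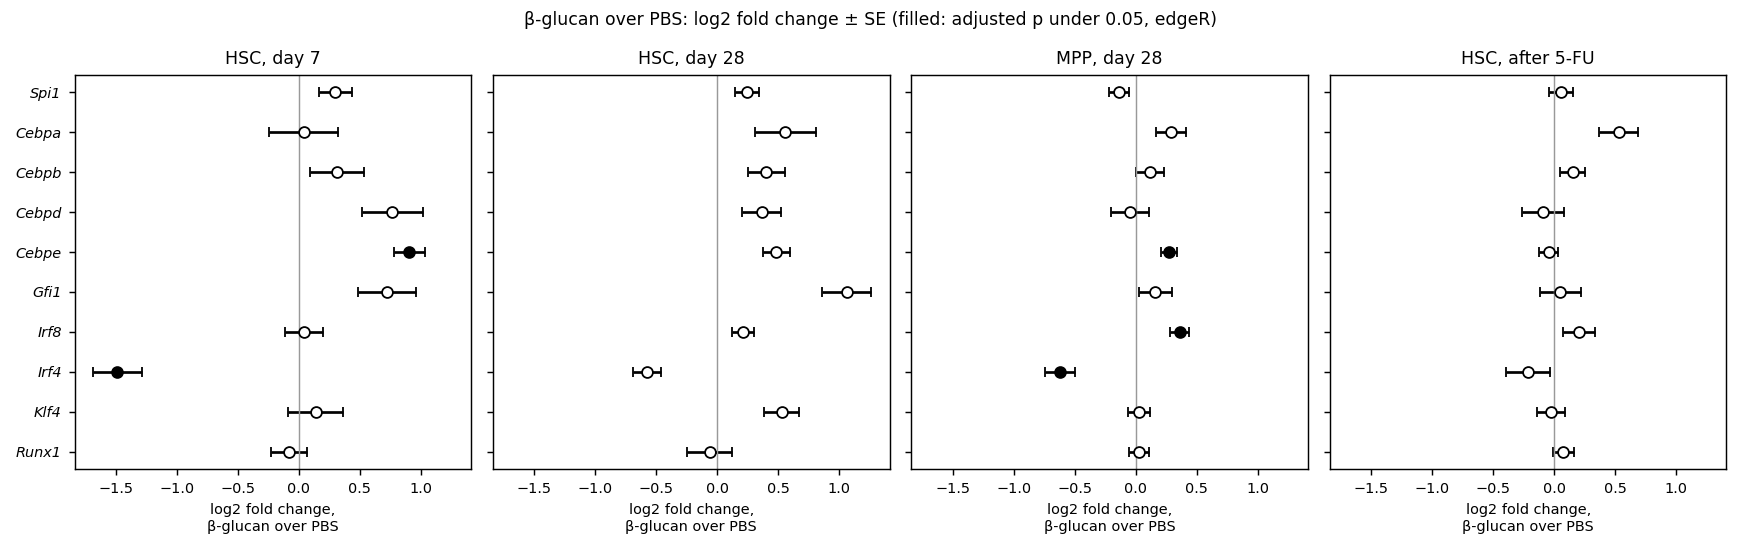
Log2 fold change of each factor, β-glucan over PBS, with its standard error, in the 4 comparisons; filled circles passed the threshold of 0.05 on the adjusted p (edgeR). Irf4 is at -1.49, -0.58, -0.62 and -0.21 from left to right, and Cebpe at 0.90, 0.48, 0.27 and -0.05.

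Whether an effect differed between settings was tested as the difference of 2 β-glucan effects. Between day 28 and day 7, the effect on Irf4 differed by 0.88 ± 0.23 (adjusted p = 0.0319, edgeR), with -0.58 at day 28 against -1.49 at day 7. It was 1 of 10 factors, beside 4.82% of all genes. This call was lost, with adjusted p between 0.0512 and 0.0754, without β-glucan library 1 or 3 or PBS library 1 or 2 of day 7, or without β-glucan library 1, 3 or 4 or PBS library 1 or 4 of day 28. With the replicate number as a block it was 0.93 (adjusted p = 0.06), and over the 15 fits that left out 1 library it ran from 0.69 to 1.14. The day 7 and day 28 libraries are separate tables, so the table and the day cannot be told apart. The effect on Cebpe differed by -0.45 ± 0.18 (adjusted p = 0.174, edgeR). These 2 were the factors with an unadjusted p under 0.05, beside 19% of all genes.

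Between MPP and HSC at day 28, no factor's effect differed at the threshold by edgeR, DESeq2 or limma voom, and 0.00599% of all genes did. The unadjusted p was under 0.05 for 3 factors, beside 6.19% of all genes, with lower values in MPP for Gfi1 (-0.91 ± 0.24), Klf4 (-0.51 ± 0.16) and Spi1 (-0.38 ± 0.13) and adjusted p between 0.677 and 0.696 (edgeR). Between the 5-FU set and day 28, edgeR called no factor, with 0.106% of all genes called, and limma voom called none. DESeq2 called Gfi1 (adjusted p = 0.0192) and Cebpe (adjusted p = 0.0389). The edgeR differences were -1.03 ± 0.27 for Gfi1, -0.55 ± 0.14 for Cebpe and -0.57 ± 0.18 for Klf4, the 3 factors with an unadjusted p under 0.05 (11.3% of all genes), and their adjusted p were 0.181, 0.181 and 0.264. Day 28 HSC enter both of these tests, which therefore share libraries. The test between MPP and HSC took same-numbered libraries as unpaired.

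Granule genes, which the C/EBP factors, PU.1 and Gfi1 are known to regulate, were followed beside the factors. Their lists too were chosen with earlier results of these data known. At day 7, 8 of 9 primary granule genes rose (median log2 fold change 0.87), among them the proteases Prtn3 (1.07 ± 0.12) and Elane (0.99 ± 0.13), and 10 of 12 secondary granule genes rose (median 0.77), among them the ficolin Fcnb (1.10 ± 0.11) and the cathelicidin Camp (0.92 ± 0.13). The median of all genes tested was -0.01. Of 16 receptor and signalling genes 7 rose, among them the Fc receptor Fcgr1 (1.22 ± 0.17) and Tlr4 (0.56 ± 0.10). Neutrophil markers, 8 of which are also on the secondary granule list, held 8.05 to 11.6% of counts in HSC of β-glucan mice and 5.63 to 6.41% in HSC of PBS mice, with none at 0. Their part in the Cebpe value was not tested.

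At day 28 in HSC no granule gene was called by edgeR, and the medians were 0.28 for the primary and -0.31 for the secondary list, beside 0.48 for Cebpe. In these HSC, primary granule genes held 1.28 to 1.51% of counts in β-glucan mice and 1.06 to 1.17% in PBS mice. Secondary granule genes held 4.87 to 5.67% in β-glucan mice and 5.69 to 6.54% in PBS mice. Neither share overlapped. In MPP the list medians also had opposite signs, 0.16 for the primary and -0.34 for the secondary list, and Cebpe rose. Of 9 primary granule genes 4 rose, Prtn3 (0.43 ± 0.06), Ms4a3 (0.36 ± 0.05), Ctsg (0.27 ± 0.06) and Elane (0.25 ± 0.06). Of 12 secondary granule genes 8 fell, among them Itgb2l (-0.37 ± 0.07), Ltf, the lactoferrin gene (-0.41 ± 0.08), and the lysozyme gene Lyz2 (-0.40 ± 0.08). Neutrophil markers held 5.29 to 6.25% of counts in MPP of β-glucan mice and 6.32 to 7.53% in MPP of PBS mice, and 8 of 14 were lower. Their part in these values was not tested. Among the receptors, Itgam (-0.43 ± 0.08) and Tyrobp (-0.30 ± 0.08) fell in MPP.

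**Figure D3:**
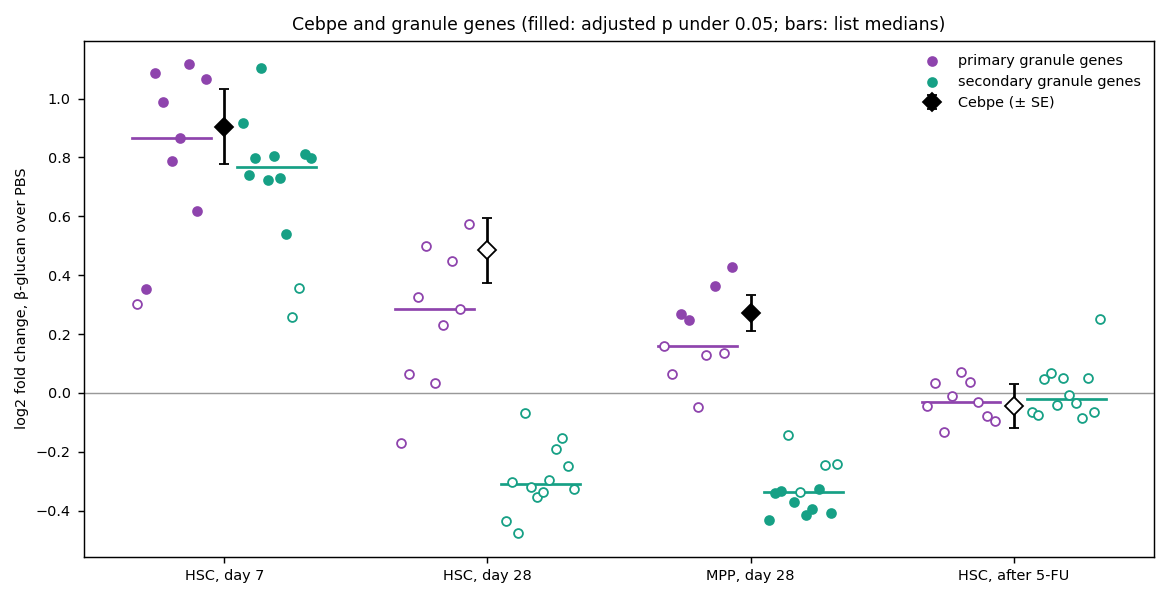
Log2 fold change, β-glucan over PBS, of the primary granule genes (purple), Cebpe (black diamond, ± SE) and the secondary granule genes (green) in the 4 comparisons; filled symbols passed the threshold (edgeR) and bars are list medians. In MPP Cebpe stands at 0.27, with the primary list median at 0.16 and the secondary at -0.34.

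MPP were compared with HSC at day 28, separately in β-glucan and PBS mice. In β-glucan mice 6 of 10 factors were lower in MPP, where 35.6% of all genes were called and 18% were lower. This fit treated the samples as unpaired. With the replicate number as a block, Cebpa was not called, Irf8 was called higher and 6706 genes were called in place of 5678. The groups did not overlap for 3 factors (Spi1, Cebpd and Cebpe, all lower in MPP), beside 33.8% of all genes, or 16.9% in that direction. In PBS mice Cebpe alone was called, lower in MPP, where 21.7% of all genes were called and 12.1% were lower. It was also the 1 factor whose groups did not overlap there, beside 26.5% of all genes, or 13.2% in that direction. HSC and MPP libraries used here also enter the β-glucan comparisons at day 28.

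Cebpe had the libraries already given, 58.1 to 63.7 CPM in MPP and 99.9 to 141 CPM in HSC of β-glucan mice, and 46.0 to 55.2 CPM in MPP and 75.4 to 95.9 CPM in HSC of PBS mice. The log2 fold change was -0.95 ± 0.09 in β-glucan mice (adjusted p = 5.79e-05) and -0.74 ± 0.09 in PBS mice (adjusted p = 0.000271, edgeR), with the 4 MPP libraries below the 4 HSC libraries both times. In β-glucan mice Cebpd (-0.63 ± 0.17, adjusted p = 0.0124), Gfi1 (-0.62 ± 0.16, adjusted p = 0.0102) and Spi1 (-0.39 ± 0.09, adjusted p = 0.00567) were lower in MPP in all 8 fits that left out 1 library (edgeR). Gfi1 overlapped in 1 library, since MPP library 3 had 5.42 CPM and HSC library 2 had 5.33 CPM. The calls of Cebpb (-0.41 ± 0.14, adjusted p = 0.0444) and Cebpa (-0.37 ± 0.13, adjusted p = 0.0461, edgeR) depended on single libraries. Cebpb was lost without HSC library 1, 2 or 4 or MPP library 2, 3 or 4 (adjusted p up to 0.126), and Cebpa without HSC library 1 or 4 or MPP library 1, 2 or 4 (adjusted p up to 0.131).

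Irf8 was the only factor with a higher mean in MPP of β-glucan mice, at 163 ± 19.3 CPM in MPP and 137 ± 14.9 CPM in HSC (0.26 ± 0.10, adjusted p = 0.0696, edgeR). Libraries of MPP and HSC with the same replicate number deviated together in β-glucan mice, and with the number as a block Irf8 was called (0.25, adjusted p = 0.00795) and Cebpa was not (adjusted p = 0.0585, edgeR). Irf8 was also called by DESeq2 (adjusted p = 0.0391), by edgeR with no filter (adjusted p = 0.0489) and without MPP library 1 (0.31, adjusted p = 0.0396, edgeR). Klf4 was called lower by limma voom (-0.33, adjusted p = 0.0431) and without HSC library 3 (-0.37, adjusted p = 0.0223, edgeR). With all 8 groups in 1 fit, Cebpa (adjusted p = 0.241) and Cebpb (adjusted p = 0.0661) were not called by edgeR. In PBS mice Spi1 stood at 13.9 ± 0.740 CPM in MPP and 14.0 ± 1.32 CPM in HSC (-0.02 ± 0.09), Irf4 at 14.1 ± 1.76 and 13.8 ± 1.45 CPM in MPP and HSC (0.02 ± 0.11), and Irf8 at 126 ± 6.75 and 117 ± 5.09 CPM (0.10 ± 0.06). Gfi1 had a higher mean in MPP of PBS mice, 3.85 ± 0.177 CPM against 3.17 ± 0.830 CPM in HSC (0.27 ± 0.18, adjusted p = 0.307, edgeR), with overlapping groups. Runx1, at 20.5 ± 0.601 CPM in MPP and 23.5 ± 6.61 CPM in HSC, was called lower without HSC library 2 (-0.35, adjusted p = 0.0338). The difference between β-glucan and PBS mice is the same contrast as the difference between the MPP and HSC effects of β-glucan above, which no factor passed.

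Of the 44 related regulators, 7 were higher and 20 lower in MPP of β-glucan mice, and 7 were higher and 10 lower in MPP of PBS mice. The dendritic cell factor Tcf4 was higher in MPP in both (0.69 ± 0.06 in β-glucan mice and 0.64 ± 0.07 in PBS mice), and Klf6, a relative of Klf4, was lower (-0.57 ± 0.06 and -0.46 ± 0.09 in β-glucan and PBS mice). Secondary granule genes were lower in MPP, 9 of 12 in β-glucan mice and 4 of 12 in PBS mice, and neutrophil markers held 5.29 to 6.25% of counts in MPP and 6.22 to 7.11% in HSC of β-glucan mice. Dendritic cell markers held 0.0569 to 0.0616% in MPP and 0.0346 to 0.0385% in HSC of β-glucan mice, and 11 of 14 were higher in MPP. Erythroid markers were lower in MPP, 11 of 13 in β-glucan mice and 8 of 13 in PBS mice, as were 5 of 9 stromal and endothelial markers in each. The part of these cells in the values of the factors was not tested.

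**Figure D4:**
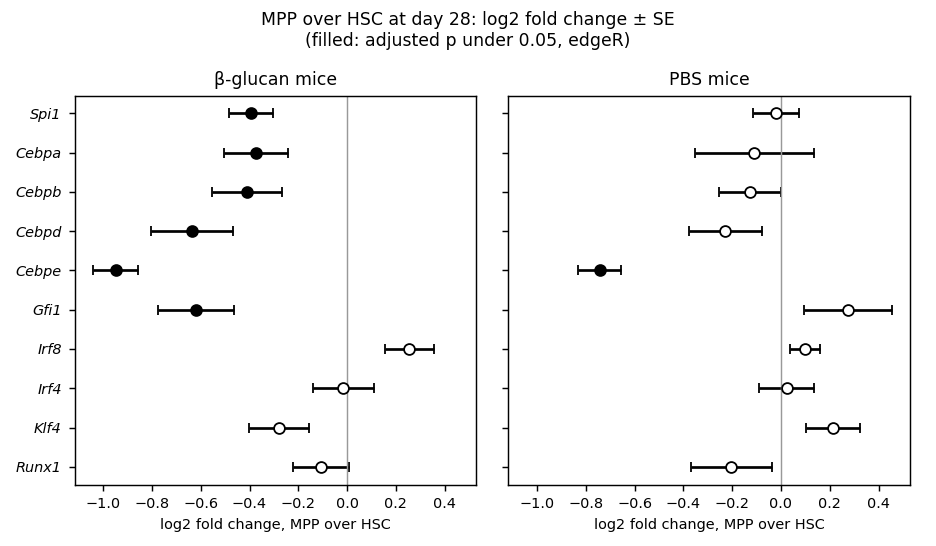
Log2 fold change of each factor, MPP over HSC at day 28, with its standard error, in β-glucan mice (left) and PBS mice (right); filled circles passed the threshold (edgeR). Cebpe is at -0.95 and -0.74, and the other 5 filled circles are all in β-glucan mice. The fits did not use the replicate number.

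Across the 31 libraries, with log2 CPM centred within each table, pairs of factors ranged from together to opposed. Pearson's r was 0.85 between Spi1 and Cebpd and 0.74 between Cebpd and Cebpe, and -0.53 between Irf4 and Gfi1 and -0.52 between Irf4 and Cebpe. These are descriptions over libraries that share groups, tables and depth, with no test. Among 9206 other genes, the pattern of Cebpe was most like that of Lrg1 (r = 0.95), a leucine-rich glycoprotein of neutrophil granules, followed by Agpat2 (0.93) and Ralb (0.92). Irf4 was most like Tifa (0.93), Fcrla (0.92), which is expressed in B cells, and the IL-2 receptor chain Il2ra (0.91). Spi1 was most like Cebpd (0.85), Gfi1 most like Srf (0.79), Irf8 most like Fkbp4 (0.81), Cebpa most like Tmed7 (0.81), Cebpb most like S100a1 (0.81), Cebpd most like Efhd2 (0.86) and Runx1 most like Mib1 (0.82). The closest match of Klf4, Ankrd40, reached 0.70.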

How the data were processed

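The deposited values were raw gene counts in 3 tables of 45706 identifiers, made with featureCounts (no version given) on mm10 after bcl2fastq 1.8.4, per the submitters' processing notes, from RNA amplified with a SMARTer Ultra protocol, per the labels. No aligner is named in the sources used here. The table of 7 columns was taken as day 7, the table with MPP columns as day 28 and the remaining table as 5-FU, with P and G read as PBS and β-glucan. For MPP library 1 of PBS mice the title says MPP and the cell type tag says HSC, and the title was followed. MPP markers held 0.119% of its counts, against 0.0959 to 0.115% in the other MPP libraries of PBS mice. In HSC of PBS mice at day 28 they held 0.0402 to 0.0472%. Symbols came from GENCODE M21 (45143 identifiers), and gene lengths from the tables.

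Counts were analysed in R 4.3.3. Main tests used edgeR 4.0.16 (quasi-likelihood, TMM, filterByExpr with a minimum count of 10, Benjamini-Hochberg adjustment over all genes tested, threshold 0.05), fitted on the groups compared, and differences of effects on 4 groups. A standard error is the absolute log2 fold change divided by the square root of F. The 95% intervals use t quantiles at the residual degrees of freedom of the fit, prior included. Levels are CPM on TMM-scaled totals. Alternatives were DESeq2 1.42.0, its size factors, limma 3.58.1 voom with quality weights, other filters (none, or a CPM of at least 5), all 8 groups in 1 fit, the replicate number as a block, and leaving out each library. The procedure was tested on simulated data. The factors and gene lists were chosen with earlier results of these data known. All factors were named, and of the lists up to 4 called genes of the smallest p per comparison. Of 10 primary granule symbols, Azu1 did not match. The rest were Mpo, Elane, Prtn3, Ctsg, Ms4a3, Cd63, Calr, Igsf6 and Nkg7. The secondary granule list was Ltf, Camp, Ngp, Lcn2, Mmp8, Mmp9, Cd177, Chil3, Fcnb, Itgb2l, Orm1 and Lyz2. How far these genes are confined to the granule type of their list was not tested. Likeness was computed on log2 CPM (prior count 2) over genes whose mean log2 CPM reached 2.

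No library duplicated another of its own group: all 45 replicate pairs differed beyond sampling noise (chi-square per gene 7.47 to 57.7). Libraries of different groups were not compared in this way. Replicate numbers come from the titles. Only for MPP against HSC in β-glucan mice did each library deviate most like its same-numbered library, in 4 of 4 pairs (r from 0.21 to 0.37). There the numbers were taken to pair the samples. In PBS mice r between same-numbered MPP and HSC libraries was also positive in every pair (0.07 to 0.22). There MPP library 1 was most like HSC library 4, and no pairing was assumed.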

Additional observations from a re-analysis of the deposited data

Results flagged for a closer look

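Within groups of 4 libraries, 5 of 70 tests of a factor in a group found a library standing apart from the other 3, where chance alone gives about 1 in 20. Cebpd stood at 3.30 CPM in HSC library 3 of PBS mice at day 7, with the others between 2.15 and 2.29 CPM. Klf4 stood at 8.72 CPM in HSC library 3 of PBS mice at day 28, with the others between 7.17 and 7.35 CPM. In MPP of β-glucan mice, Cebpe was low in library 1 (58.1 CPM, others 63.3 to 63.7 CPM), Spi1 was high in library 2 (14.9 CPM, others 11.8 to 12.3 CPM) and Gfi1 was high in library 3 (5.42 CPM, others 3.86 to 4.07 CPM). The β-glucan effect on Irf4 differed between day 28 and day 7 by 0.88 on the log2 scale by a test of the difference.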

How the results depend on the processing

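Scaling by the size factors of DESeq2 changed no number of factors called by edgeR, and the stricter filter changed it only for MPP against HSC in β-glucan mice, where Cebpd did not pass that filter. At day 7 all 8 groups in 1 fit called 4 factors in place of 2. In HSC at day 28, against 0 by edgeR, DESeq2 and limma voom called 4 factors each, and no filter and all 8 groups in 1 fit called 3 each. In MPP all 8 groups in 1 fit called 1 factor in place of 3. For MPP against HSC in β-glucan mice, in place of 6, all 8 groups called 4 (without Cebpa and Cebpb), DESeq2 7 (with Irf8), limma voom 7 (with Klf4), and no filter 6 (with Irf8 in place of Cebpa). For the difference between day 28 and day 7, the replicate block called 0 in place of 1, and for that between 5-FU and day 28 DESeq2 called 2 in place of 0. The cause of these shifts was not tested. Numbers were taken to pair the samples only for MPP against HSC in β-glucan mice. There the block called 6 factors as without it, with Irf8 in place of Cebpa. In the other comparisons, where no pairing was assumed, the block changed no other number of factors called. Over all genes it called 645 in place of 1102 at day 7 and 14 in place of 6 in HSC at day 28. It called 16 in place of 7 after 5-FU and 7 in place of 18 for the difference between 5-FU and day 28.

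Leaving out 1 library at a time, the number called ran from 0 to 3 in MPP, from 1 to 2 for MPP against HSC in PBS mice, from 4 to 7 in β-glucan mice and from 0 to 1 for the difference between day 28 and day 7. Signs turned only for differences near 0 that were not called. At day 7 Irf8 was at -4.1e-05 by limma voom and at -0.034 with the replicate block, Runx1 at 0.065 with the block, and Irf4 in MPP against HSC of β-glucan mice at 0.039 by limma voom. With 1 library left out, log2 fold changes ran at day 7 from -0.14 to 0.28 (Cebpa), -0.044 to 0.18 (Irf8) and -0.15 to 0.067 (Runx1), in HSC at day 28 from -0.21 to 0.12 (Runx1), and in MPP from -0.15 to 0.058 (Cebpd), -0.023 to 0.067 (Klf4) and -0.022 to 0.093 (Runx1). After 5-FU they ran from -0.19 to 0.032 (Cebpd), -0.10 to 0.0081 (Cebpe), -0.042 to 0.14 (Gfi1) and -0.074 to 0.065 (Klf4), and for MPP against HSC from -0.076 to 0.024 (Spi1), -0.28 to 0.21 (Cebpa) and -0.060 to 0.073 (Irf4) in PBS mice and from -0.14 to 0.066 (Irf4) in β-glucan mice.

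Over all genes, the number called moved by over 1.5 times with the tool. In place of 1102 at day 7, DESeq2 called 1711, limma voom 1744 and all 8 groups in 1 fit 1971. In place of 6 in HSC at day 28 these called 589, 598 and 525, and no filter 182. In place of 733 in MPP, DESeq2 called 1301, all 8 groups 228 and no filter 1181. In place of 7 after 5-FU, DESeq2 called 147, limma voom 42, all 8 groups 94, no filter 110 and the strict filter 16. For the difference between day 28 and day 7, DESeq2 called 1432, limma voom 1611 and all 8 groups 1461 in place of 866, and for that between 5-FU and day 28 DESeq2 called 151, limma voom 118, all 8 groups 41 and no filter 59 in place of 18. For the difference between MPP and HSC, DESeq2, all 8 groups and no filter called 2 each in place of 1.

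Leaving out 1 library also moved these numbers, and with them the shares of all genes called, by over 1.5 times. At day 7 (1102) 559 and 500 were called without β-glucan library 2 or 3 and 643 without PBS library 2. In MPP (733) 257, 164, 197 and 319 were called without PBS library 1, 2, 3 or 4, and 266 and 337 without β-glucan library 3 or 4. For the difference between day 28 and day 7 (866) 445 and 520 were called without β-glucan library 2 or 3 of day 7 and 537 without β-glucan library 1 of day 28. For MPP against HSC in PBS mice (3493) 2004 were called without MPP library 1. Where few genes were called, the number ran from 1 to 51 in HSC at day 28 (most without PBS library 2), from 2 to 61 after 5-FU (most without PBS library 3), from 6 to 49 for the difference between 5-FU and day 28 (most without β-glucan library 3 of day 28) and from 1 to 3 for that between MPP and HSC (most without PBS HSC library 3).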
